A study of Mus musculus with 2 samples.

Results

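The genes described here are 10 carboxylesterases of mouse liver, Ces1b, Ces1c, Ces1d, Ces1e, Ces1f, Ces1g, Ces2a, Ces2e, Ces3a and Ces3b. They were found by GENCODE symbol among the 47442 features of the deposited tables, and all 10 had a row. Both libraries came from livers of mice labelled C57BL/6, 8 to 9 weeks old, which had received an adenovirus through the tail vein 10 days earlier. In the GBP5 library the virus carried GBP5, an interferon-induced guanylate-binding protein, and in the β-Gal library it carried β-galactosidase, a bacterial enzyme used as a control. Viruses with fragments of GBP5, which the protocol also names, were not analysed here. Each group was 1 library, and the number of animals behind it, their sex, the promoter of the viruses and the species of the GBP5 gene were not given in the sources used here. About 17206000 reads in the GBP5 library and 18405000 in the β-Gal library were assigned to genes, as recovered from the values. There were therefore no replicates and no test: a gene is called "higher" or "lower" by its level with GBP5 set against its level with β-Gal, and the 95% intervals cover counting error only.

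Carboxylesterases are serine hydrolases that cut ester, amide and thioester bonds. In hepatocytes most of them sit in the lumen of the endoplasmic reticulum, where they break down drugs such as ester prodrugs and also lipids, among them triglycerides on their way into or out of very low-density lipoprotein (VLDL). The Ces1 enzymes prefer substrates with a large acyl group, and the Ces2 enzymes substrates with a small acyl group and a large alcohol group. Nuclear receptors of xenobiotics and bile acids are known to act on several of these genes.

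Most of the family was lower with GBP5, but by very different amounts, and 1 member went the other way. Levels are given in FPKM, fragments per kilobase of transcript scaled to library size. A gene was called at least 2-fold higher or lower on the log2 scale after 1 FPKM was added to both values. By that rule 8 of the 10 members were lower, against 5.56% of the 13599 features that reached 1 FPKM in a library, and 1 was higher, against 19.2% of features. The median log2 ratio was -1.67 over the 10 members and 0.48 over all features. The members' summed level was 1122 FPKM in the GBP5 library, against 3271 FPKM in the β-Gal library, a ratio of 0.343. That sum was 0.154% of all FPKM with GBP5 and 0.431% with β-Gal. Leaving out any 1 member kept the ratio of the sums between 0.293, without Ces2e, and 0.386, without Ces3a.

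The scale of the libraries matters for these values, because most genes lay above parity: in 11828 genes that reached 1 FPKM in each library, values had a median GBP5 to β-Gal ratio of 1.45. After the GBP5 library was divided by that ratio, 8 members were still lower and none was higher, against 9.75% and 7.32% of features, and the members' median was -2.17. Markers of hepatocytes, which express the family, were themselves lower. Of 12 such markers, as deposited, none was higher and 8 passed the 2-fold limit downwards, with a median log2 ratio of -1.19. Their summed level was 56915 FPKM in the GBP5 library and 106068 FPKM in the β-Gal library. After division by the median ratio of all genes, 12 of the 12 markers were lower, with a median of -1.72. In bulk liver, fewer hepatocytes and less of a transcript per hepatocyte cannot be told apart. When the GBP5 library was divided instead by the hepatocyte markers' median ratio of 0.439, 3 members (Ces1e, Ces3a and Ces3b) were lower and 1 (Ces2e) was higher, against 2.16% and 75.2% of features. The members' median was then -0.53, with 1.47 over all features.

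**Figure D1:**
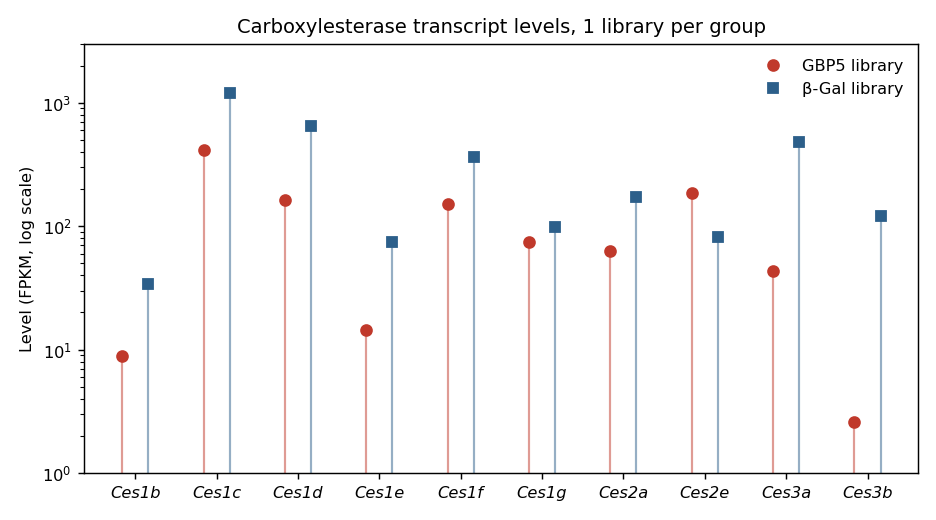
Level of each carboxylesterase in the GBP5 library (circles) and the β-Gal library (squares), in FPKM on a log axis; each point is 1 library, so there are no error bars. Ces2e is the gene whose GBP5 point lies above its β-Gal point (187 and 81.5 FPKM), and the widest gap is that of Ces3b (2.61 and 119.9 FPKM).

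All members lie on mouse chromosome 8 (GENCODE M21, GRCm38) in a pair of tandem arrays. The Ces1 array, on the minus strand, spans 280.6 kb and holds Ces1b (ENSMUSG00000078964, 93056728 to 93080017), Ces1c (ENSMUSG00000057400, 93099015 to 93131283), Ces1d (ENSMUSG00000056973, 93166068 to 93197838), Ces1e (ENSMUSG00000061959, 93201218 to 93229619), Ces1f (ENSMUSG00000031725, 93256236 to 93279747) and Ces1g (ENSMUSG00000057074, 93302369 to 93337308). The second array, on the plus strand, spans 359.9 kb and holds Ces2a (ENSMUSG00000055730, 104734003 to 104741634), Ces2e (ENSMUSG00000031886, 104926260 to 104934672), Ces3a (ENSMUSG00000069922, 105048601 to 105058413) and Ces3b (ENSMUSG00000062181, 105083753 to 105093929).

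RefSeq promoter windows (GRCm38.p6) were at hand for 7 members, Ces1b, Ces1c, Ces1e, Ces1g, Ces2a, Ces2e and Ces3b, and the 250 bases before the outermost annotated start were read. The first pair is shown because the neighbouring genes Ces1b and Ces1c share much of this sequence. Capitals mark their longest common string, 58 bases, which no other of the 27026 promoter windows of this length held on either strand. Over the aligned bases these windows are 92.5% identical, a figure that leaves out gaps. The string begins at -96 from the annotated start in Ces1b and at -184 in Ces1c, so the windows are offset and part of each is unmatched.
Ces1b, chr8:93080018-93080267, minus strand: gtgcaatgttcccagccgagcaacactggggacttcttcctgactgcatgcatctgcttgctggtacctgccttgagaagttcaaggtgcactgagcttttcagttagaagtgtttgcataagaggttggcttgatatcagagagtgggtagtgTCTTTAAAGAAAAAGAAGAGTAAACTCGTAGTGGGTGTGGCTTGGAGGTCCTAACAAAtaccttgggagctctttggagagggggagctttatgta
Ces1c, chr8:93131284-93131533, minus strand: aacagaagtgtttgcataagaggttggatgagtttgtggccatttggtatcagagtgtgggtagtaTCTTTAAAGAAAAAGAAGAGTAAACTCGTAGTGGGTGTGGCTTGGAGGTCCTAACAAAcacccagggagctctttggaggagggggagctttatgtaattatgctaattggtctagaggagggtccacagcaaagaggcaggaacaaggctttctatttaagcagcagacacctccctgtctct

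The next pair is shown because Ces2a and Ces2e differ in direction between the libraries. Their windows are 69.9% identical over the aligned bases, a figure that leaves out gaps. By the same measure the windows of Ces1c and Ces3b, genes of different groups, are 67.2% identical, and those of Ces1b and Ces3b 54.8%. Capitals mark the letters TTGCNNAA on either strand, a form of the C/EBP motif. It matched 2 times in Ces2a and 1 time in Ces2e.
Ces2a, chr8:104733753-104734002, plus strand: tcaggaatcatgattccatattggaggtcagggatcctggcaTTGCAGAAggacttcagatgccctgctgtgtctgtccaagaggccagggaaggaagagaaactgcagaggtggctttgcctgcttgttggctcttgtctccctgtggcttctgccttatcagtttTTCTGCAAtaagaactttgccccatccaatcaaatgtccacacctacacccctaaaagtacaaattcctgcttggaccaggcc
Ces2e, chr8:104926010-104926259, plus strand: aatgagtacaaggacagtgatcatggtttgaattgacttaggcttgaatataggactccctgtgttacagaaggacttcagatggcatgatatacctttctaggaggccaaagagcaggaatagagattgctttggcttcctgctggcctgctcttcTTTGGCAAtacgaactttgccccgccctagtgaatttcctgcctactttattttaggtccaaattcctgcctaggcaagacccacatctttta

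Ces3b, the member with the largest difference, is shown with the TATA box letters TATAAA in capitals, 30 to 25 bases before the annotated start.
Ces3b, chr8:105083505-105083754, plus strand: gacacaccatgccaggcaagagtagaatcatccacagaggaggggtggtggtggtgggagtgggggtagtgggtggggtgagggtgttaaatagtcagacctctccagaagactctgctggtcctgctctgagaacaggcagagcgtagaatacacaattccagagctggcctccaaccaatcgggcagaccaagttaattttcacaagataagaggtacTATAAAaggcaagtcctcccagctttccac

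Of 6 motifs searched on both strands, TTGCNNAA was in 4 of the 7 windows (Ces1b, Ces1c, Ces2a and Ces2e), against 9.55% of all promoters. These 4 windows are not independent. Ces1b and Ces1c share much of their sequence, and Ces2a and Ces2e are 83.8% identical over aligned coding bases. TATAAA was in 2 (Ces1g and Ces3b), against 13% of all promoters. The HNF4A form CAAAGTCCA (0.377% of promoters), the HNF1 motif (0.0074%), the antioxidant response core TGACNNNGC (10.1%) and the AP-1 form TGANTCA (6.85%) were in none. These matches describe letters in the windows and say nothing of binding.

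In the Ces1 group, 5 of 6 genes were at least 2-fold lower and Ces1g was not, as deposited and after rescaling by the median ratio of all genes, against 5.56% and 9.75% of features. After rescaling by hepatocyte markers 1 of 6, Ces1e, was lower, against 2.16% of features, and the group's median was -0.53. The group held 826 FPKM in the GBP5 library and 2418 FPKM in the β-Gal library. It made up 73.6% of the members' summed level with GBP5 and 73.9% with β-Gal, so its part of the family hardly moved while its level did.

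Ces1c encodes the esterase that mouse liver secretes into plasma, and it was the most abundant member in both libraries, at 414 FPKM with GBP5 and 1195 FPKM with β-Gal. It ranked 258 among all features in the GBP5 library and 81 in the β-Gal library, and its level was 2.89-fold lower (log2 ratio -1.53). Its neighbour Ces1b was at 8.87 FPKM with GBP5 and 33.8 FPKM with β-Gal, 3.80-fold lower. These genes are 91.1% identical over aligned coding bases, and 11.6% of the 50-base stretches of the Ces1b transcript and 17% of those of Ces1c also occur in another gene's transcript, mainly in each other's. Reads may be split between them. Their summed level, 423 FPKM with GBP5 and 1229 FPKM with β-Gal, had a ratio of 0.344 and was nearly all Ces1c.

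Ces1d encodes triacylglycerol hydrolase, an enzyme of the endoplasmic reticulum that supplies lipid for VLDL. It was at 164 FPKM with GBP5 and 654 FPKM with β-Gal, from 2362 and 10095 reads. Its ratio, 0.25, had a counting interval of 0.239 to 0.262. Ces1f, named TGH-2 in RefSeq for its likeness to triacylglycerol hydrolase, was at 151 FPKM with GBP5 and 362 FPKM with β-Gal, 2.40-fold lower. It was the member nearest to the 2-fold limit among those called lower, with a log2 ratio of -1.26, and it was at -0.08 after rescaling by the hepatocyte markers.

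Ces1e encodes egasyn, which holds part of the cell's β-glucuronidase in the endoplasmic reticulum. It had the largest difference of the Ces1 group: 14.5 FPKM with GBP5 and 75.0 FPKM with β-Gal, from 389 and 2150 reads, a ratio of 0.194 (interval 0.173 to 0.216). The gene of its partner, Gusb, went the other way, at 60.4 FPKM with GBP5 and 31.0 FPKM with β-Gal, a ratio of 1.95 (interval 1.80 to 2.11) and a log2 ratio of 0.94, or 0.42 after rescaling by all genes.

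Ces1g encodes a hydrolase of hepatocyte lipids. It was at 74.8 FPKM with GBP5 and 97.8 FPKM with β-Gal, from 3073 and 4300 reads. Its ratio was 0.764 (interval 0.730 to 0.801). This is below parity by more than the counting error but short of 2-fold. Its log2 ratio was -0.38 as deposited, -0.91 after rescaling by all genes and 0.79 after rescaling by hepatocyte markers, so its direction depends on the scale. A comparison of members within each library needs no scale. The level of Ces1g was 0.457 times that of Ces1d with GBP5 and 0.150 times with β-Gal, a 3.05-fold shift (interval 2.86 to 3.26), and 5.15 times that of Ces1e with GBP5 and 1.30 times with β-Gal, a 3.95-fold shift (interval 3.51 to 4.45). These pairs were chosen after the values were seen.

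Ces2a and Ces2e, which encode liver and intestinal esterases of the Ces2 class, moved apart. Ces2a was at 63.3 FPKM with GBP5 and 173 FPKM with β-Gal, 2.73-fold lower. Ces2e was at 187 FPKM with GBP5 and 81.5 FPKM with β-Gal, 2.29-fold higher. The log2 ratio of Ces2e was 1.19 as deposited, 0.66 after rescaling by all genes, short of 2-fold, and 2.37 after rescaling by hepatocyte markers, so its direction was kept under each. The level of Ces2e was 2.95 times that of Ces2a in the GBP5 library and 0.471 times in the β-Gal library, a 6.27-fold shift that no scaling alters. By level, Ces2e ranked next after Ces1c with GBP5, and was below 7 other members with β-Gal. As deposited, the sum of both Ces2 genes was nearly the same, 250.3 FPKM with GBP5 and 255 FPKM with β-Gal, a likeness that either rescaling removes. The share of these 2 genes in the family was 22.3% with GBP5 and 7.78% with β-Gal. Of the 50-base stretches of the transcripts, 22.2% in Ces2a and 3.36% in Ces2e occur in another gene. In Ces2a that gene is mainly Gm7208, which was not found by symbol among the deposited features.

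Ces3a and Ces3b, liver genes known in RefSeq under the esterase name Es31, had the largest differences of the family. Ces3a was at 43.1 FPKM with GBP5 and 479 FPKM with β-Gal, 11.1-fold lower. Ces3b was at 2.61 FPKM with GBP5 and 119.9 FPKM with β-Gal, from 64 and 3143 reads. Its ratio was 0.0218 (interval 0.0167 to 0.0279). Ces3b was 21st and Ces3a 48th from the lowest among the 13599 log2 ratios. They stayed at least 2-fold lower on every scale tried, at -2.27 for Ces3a and -4.12 for Ces3b after rescaling by hepatocyte markers.

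The coding sequences of Ces3a and Ces3b are 95.3% identical, and 30.9% of the 50-base stretches of the Ces3a transcript and 26.1% of those of Ces3b occur in another gene, mainly in each other. Stretches of 100 bases were shared in 9.09% and 7.68%. The read length and the treatment of reads with several matches were not given in the sources used here, so the split between this pair, and how shared reads enter either value, is uncertain. Their summed level was 45.7 FPKM with GBP5 and 599 FPKM with β-Gal, a ratio of 0.0763. The pair made up 4.07% of the members' summed level in the GBP5 library and 18.3% in the β-Gal library.

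**Figure D2:**
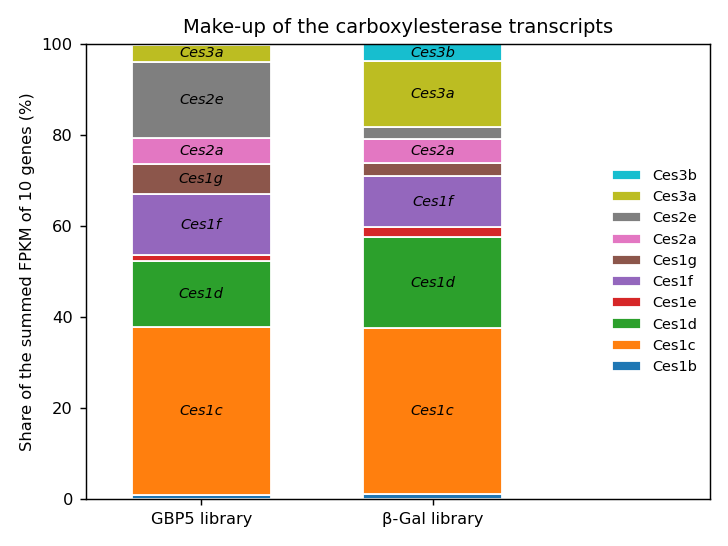
Share of each carboxylesterase in the summed FPKM of the 10 genes, in percent, for the GBP5 library (left bar) and the β-Gal library (right bar). Ces1c holds 36.9% and 36.5%, whereas Ces2e holds 16.7% and 2.49% and Ces3a 3.84% and 14.6%.

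The summed shares of the Ces2 and Ces3 genes differed between the libraries, and that of the Ces1 group hardly did. The Ces2 difference was that of Ces2e, since Ces2a held 5.64% with GBP5 and 5.29% with β-Gal. Within the Ces1 group, the share of Ces1d was 14.6% with GBP5 and 20% with β-Gal, and that of Ces1g 6.67% with GBP5 and 2.99% with β-Gal. Levels of different genes should be read with care. For 4 members, whole reads were recovered with the mean length of the annotated isoforms, a length that raises genes with short isoforms. For the other 6 they were not, and the length behind the FPKM was not given in the sources used here. Ces1d, whose mean isoform length is 839 bases and whose longest is 2004 bases, would, if the mean length was used, be at 68.5 FPKM with GBP5 and 274 FPKM with β-Gal over its longest isoform. Ces1g, with 1 isoform, would stay at 74.8 and 97.8 FPKM, above Ces1d in the GBP5 library on that scale. Ratios of a gene between the libraries do not depend on length if the same length was used in both. That was not given for the members without whole reads.

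**Figure D3:**
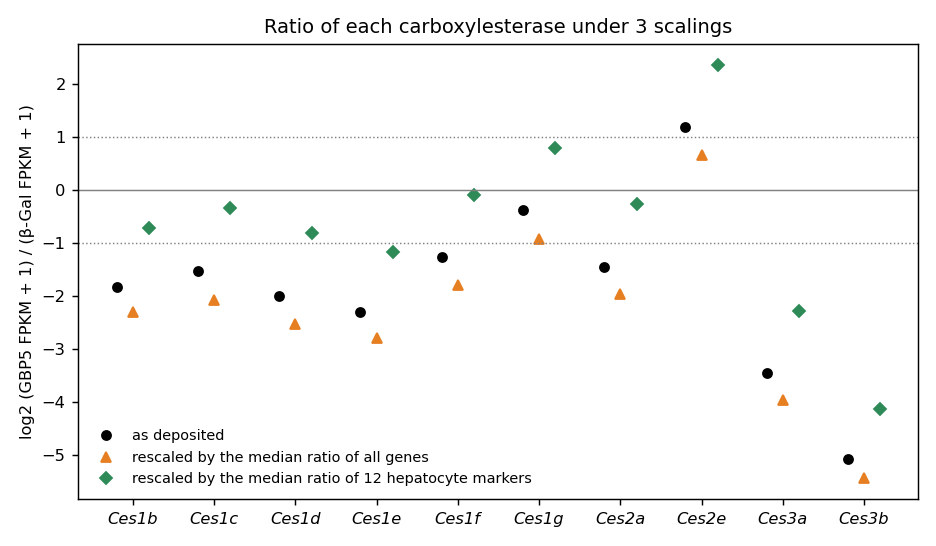
Log2 ratio of the GBP5 library over the β-Gal library for each member, with 1 FPKM added, as deposited (circles), after division by the median ratio of all genes (triangles) and after division by the median ratio of 12 hepatocyte markers (diamonds); dotted lines mark 2-fold. Ces3a and Ces3b lie below the lower dotted line and Ces2e above 0 under each, while Ces1g lies on either side of 0.

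Of the other 10 genes of the carboxylesterase family, 3 reached 1 FPKM in either library. None of these was lower and 1 was higher, against 5.56% and 19.2% of all features. Ces2c, which encodes an acylcarnitine hydrolase, was at 45.8 FPKM with GBP5 and 21.9 FPKM with β-Gal, 2.09-fold higher. Ces2g was at 29.7 FPKM with GBP5 and 17.1 FPKM with β-Gal, a ratio of 1.74. After rescaling by all genes neither passed 2-fold, with log2 ratios of 0.51 for Ces2c and 0.25 for Ces2g. On that scale 7.32% of features were higher and 9.75% lower. All 3 measured genes were higher on the hepatocyte marker scale, as were 75.2% of features. Ces1a, beside Ces1b, was at 1.41 FPKM with GBP5 and 0.220 FPKM with β-Gal, a log2 ratio of 0.98. The remaining 7 genes, Ces1h, Ces2b, Ces2d-ps, Ces2f, Ces2h, Ces4a and Ces5a, were each at or below 0.290 FPKM in both libraries.

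Genes near the arrays were also measured. Within 500 kb of the arrays, 26 features other than carboxylesterases were measured, of which none was lower and 1 was higher, as deposited and after rescaling by all genes. Among all features 5.56% were lower and 19.2% higher as deposited, and 9.75% and 7.32% rescaled. The 26 features had a median log2 ratio of 0.28, or -0.17 rescaled, against 0.48 and 0.01 over all features. The gene that was higher was Cbfb, a subunit of a transcription factor, at 49.9 FPKM with GBP5 and 16.6 FPKM with β-Gal. Of the 26 features, 2 lay beside the Ces1 array. On the hepatocyte marker scale 25 of 29 measured neighbours were higher and none lower, a count that takes in other carboxylesterases. The shares of all features on that scale were 75.2% and 2.16%. In the second array, Ces2c, Ces2e and Ces2g, with log2 ratios of 1.03, 1.19 and 0.77, stand between Ces2a and Ces3a.

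**Figure D4:**
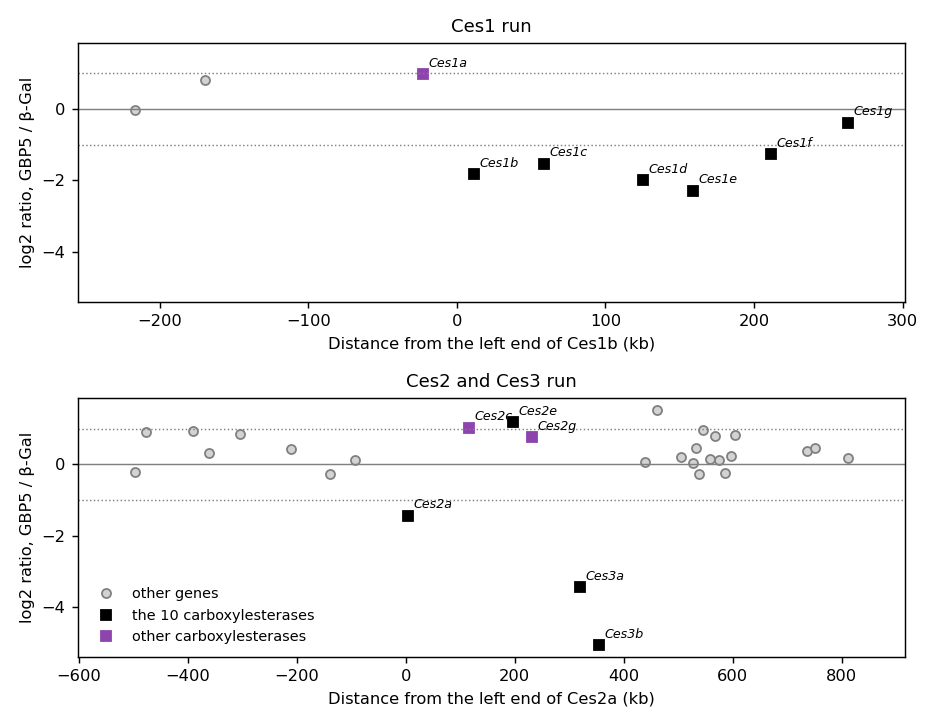
Log2 ratio (GBP5 over β-Gal, as deposited) of measured genes along the Ces1 array (upper panel) and the Ces2 and Ces3 array (lower panel), by distance in kb from the left end of Ces1b or Ces2a; dotted lines mark 2-fold. The 10 carboxylesterases (black) and 3 other family members (purple) are named, and the other genes (grey) lie between the dotted lines except Cbfb, at 1.53.

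Other esterases and lipases had a median near 0. Of 33 listed, 31 were measured: 6 passed 2-fold upwards and 4 downwards (1 and 7 once rescaled by all genes), with a median of 0.12, or -0.40 rescaled. As deposited, 19.2% of all features were higher and 5.56% lower, and after rescaling by all genes 7.32% and 9.75%. On the hepatocyte marker scale 17 of the list were higher and 1 was lower, against 75.2% and 2.16% of features. Pon1, the plasma paraoxonase that hepatocytes secrete, was 5.85-fold lower, at 87.9 FPKM with GBP5 and 515 FPKM with β-Gal. Afmid, a kynurenine formamidase, was 3.08-fold lower. Lpl, the lipoprotein lipase that frees fatty acids from circulating triglycerides, was 5.62-fold higher, at 158 FPKM with GBP5 and 28.1 FPKM with β-Gal.

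Genes of VLDL assembly and triglyceride storage, the pathways in which Ces1d is known to act, had 4 of 16 members higher and none lower (1 and 2 after rescaling by all genes), with a median of 0.42, or -0.09 rescaled. Over all features 19.2% were higher and 5.56% lower as deposited, and 7.32% and 9.75% after rescaling by all genes. The medians were 0.48 and 0.01. On the hepatocyte marker scale 13 of the 16 were higher and none lower, against 75.2% and 2.16% of features. Those with the largest ratios encode lipid droplet proteins. Plin2 was at 1459.8 FPKM with GBP5 and 346 FPKM with β-Gal, a ratio of 4.21 (interval 4.09 to 4.34). Hsd17b13 was 2.61-fold and Plin5 2.42-fold higher, with log2 ratios of 0.85 and 0.71 after rescaling.

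Of 16 receptors and factors known to act on carboxylesterase or other liver genes, 1 was higher and 3 were lower (0 and 4 after rescaling by all genes), with a median of 0.02, or -0.48 rescaled. On the hepatocyte marker scale 10 were higher and none was lower, with a median of 1.15. The background for each list in this paragraph is all features. Of these, 19.2% were higher and 5.56% lower as deposited, and 7.32% and 9.75% after rescaling by all genes. On the hepatocyte marker scale the shares were 75.2% and 2.16%. Nr1i3, the xenobiotic receptor CAR, was at 2.61 FPKM with GBP5 and 10.6 FPKM with β-Gal, 4.08-fold lower. Srebf1, a regulator of lipid synthesis, was 4.03-fold lower and Cebpa, a hepatocyte factor of the C/EBP family, 2.32-fold lower. Among 13 targets of CAR and of its relative PXR, 5 were lower and 2 higher (7 and 1 rescaled), with a median of -0.57, or -1.07 rescaled. This balance turned on the hepatocyte marker scale, where 2 were lower and 5 higher, with a median of 0.57. Cyp2c29 was 7.14-fold lower, Cyp3a13 5.13-fold lower (interval of the ratio 0.182 to 0.208) and Abcb1a, a drug efflux pump, 4.15-fold higher. Of the targets of NRF2, a transcription factor of the oxidative stress response, 10 of 12 were higher and none lower (9 and 0 rescaled; 12 and 0 on the hepatocyte marker scale), with a median of 2.30. Gsta1 and Gstm3, glutathione transferases, were 37.2-fold and 17.1-fold higher, and Srxn1, a sulfiredoxin, 16.7-fold higher.

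The receptors of the retention signal that keeps enzymes in the endoplasmic reticulum, with Gusb and other genes of that compartment, held no member past the limit among 6, before or after rescaling by all genes, with a median of 0.39, or -0.23 rescaled. With sums made equal over all genes 1 was higher, and on the hepatocyte marker scale 5 were. Among all features 19.2% were higher and 5.56% lower as deposited, and 7.32% and 9.75% after rescaling by all genes. On the hepatocyte marker scale 75.2% of features were higher. Kdelr2 was at 68.5 FPKM with GBP5 and 48.9 FPKM with β-Gal, and Kdelr3 at 1.40 FPKM with GBP5 and 0.653 FPKM with β-Gal, a plain ratio of 2.14 and a log2 ratio of 0.54 with 1 FPKM added.

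**Figure D5:**
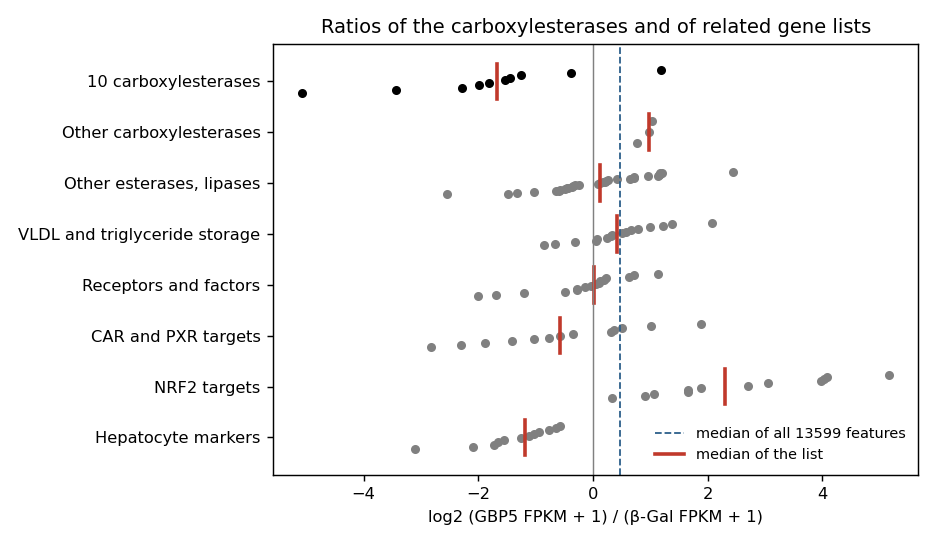
Log2 ratio (GBP5 over β-Gal, as deposited) of the measured members of each gene list (points) with the list's median (red bar); the dashed line is the median of all 13599 features, 0.48. The 10 carboxylesterases have a median of -1.67, the 12 hepatocyte markers -1.19 and the 12 NRF2 targets 2.30.

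Markers of other cells moved as well. As background for their counts, 5.56% of all features were lower and 19.2% higher as deposited, and 9.75% and 7.32% after rescaling by all genes. The mouse gene Gbp5 was at 19.1 FPKM with GBP5 and 4.24 FPKM with β-Gal. Whether virus transcripts add to that value cannot be told, since the species of the virus's GBP5 gene was not given. Alb and Apoa1 were at 43416 and 4605 FPKM with GBP5 and at 74174 and 7249.7 FPKM with β-Gal. Both libraries thus held abundant hepatocyte transcripts. Pancreatic acinar markers summed to 13.5 FPKM with GBP5 and 827 FPKM with β-Gal, with 7 of 7 measured lower. In the GBP5 library Ctrb1, Cpa1, Pnlip, Cel, Clps and Amy2a5 were listed at 0, and Cela1 held 13.4 of the 13.5 FPKM. Neutrophil markers, with S100a8 and S100a9 the most abundant, summed to 205 FPKM with GBP5 and 1953 FPKM with β-Gal, 8 of 8 lower. The part of these cells in the carboxylesterase ratios was not tested. Intestine and fat also express members of the family. Of 8 enterocyte markers 3 were measured, all higher but none after rescaling by all genes, and Sis and Cdx1 were at 0 in both libraries. The list's sums of 284 FPKM with GBP5 and 131 FPKM with β-Gal were nearly all Fabp2 and Apoa4, which liver expresses. Of 7 adipocyte markers 3 were measured, with 1 higher and 1 lower (1 and 2 rescaled), and Lep was at 0 in both libraries and Adipoq at 0 with GBP5 and 1.07 FPKM with β-Gal. The sums were 24.7 FPKM with GBP5 and 11.4 FPKM with β-Gal, mostly Fabp4.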

How the data were processed

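The deposited values are FPKM, per the file headers, 1 value per feature and library. TopHat2, HTSeq 0.6.1 and GRCm38 are named, per the submitters' processing notes; the annotation release, strand setting and FPKM program were not given in the sources used here. Symbols and positions came from GENCODE M21 by Ensembl identifier (46488 of 47442 features), and all 202 listed symbols matched.

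Reads were recovered as whole multiples (tolerance 0.02) of 1 step of FPKM times mean isoform length. The step implies a library size of about 17206000 reads for GBP5 and 18405000 for β-Gal. Whether that size counts reads assigned to genes or all mapped reads was not given in the sources used here. Below 50 reads, 82.5% (GBP5) and 80.6% (β-Gal) of values were whole; over all values 51.1% (GBP5) and 51.6% (β-Gal) were. Of the members, Ces1d, Ces1e, Ces1g and Ces3b had whole reads in both libraries and received exact (Clopper-Pearson) 95% intervals of the ratio given the summed reads; ratios of 2 members received exact conditional intervals of the odds ratio. The other 6, without an interval, would hold about 300 to 29100 reads. PCR duplicates are not independent molecules, so intervals cover counting error only.

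For features that reached 1 FPKM in a library, 1 FPKM was added to both values, their ratio (GBP5 over β-Gal) was put on the log2 scale, and a size of 1 in either direction was called. With 1 library a group no test was made. Folds of single genes are plain FPKM ratios. The procedure was run on simulated reads with planted differences and counting error only. Such reads hold no variation between animals or libraries, so the run says nothing of that variation. Alternatives used another pseudocount (0.1 or 5 FPKM), another filter (none or 5 FPKM), rescaling by the median ratio, sums made equal over all genes (TPM) or leaving out the top 50, protein-coding genes, or members with whole reads. Chosen after seeing the data were rescaling by 12 hepatocyte markers and levels over the longest isoform.

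The members and gene lists were chosen with earlier results of these data known. Besides the members, the text names the 3 genes of each list with the largest log2 ratio and the 2 most abundant markers of each cell list. Named as well are 2 neighbours of the arrays, Alb and Gbp5. Some marker genes listed at 0, and the ends of the range of the sex-biased genes, were named after their values were seen. Coding sequences, from the longest annotated one of each gene, were aligned globally with Biopython 1.88, and transcripts were compared by 50- and 100-base stretches. Python 3.11.15, pandas 2.3.3 and SciPy 1.17.1 were used.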

Additional observations from a re-analysis of the deposited data

How the results depend on the processing

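The number of members at least 2-fold lower was 8 under pseudocounts of 0.1 and 5 FPKM, both filters, sums made equal over all genes or leaving out the top 50, rescaling by the median ratio and protein-coding genes. It was 3 after rescaling by hepatocyte markers (chosen after seeing the data), which changes the scale of every gene, and 3 of the 4 members with whole reads, where none was higher and the median was -2.14. The number higher was 1, but 0 after rescaling by the median ratio. The members' median, -1.67, became -1.50 with a pseudocount of 5 FPKM, -2.17 after rescaling by the median ratio, -1.81 with equal sums leaving out the top 50 and -0.53 with hepatocyte markers. The ratio of the members' sums, 0.343, became 0.237, 0.309 and 0.782 under the last 3 of these. Over all features, 2605 were higher and 756 lower, with a median of 0.48. These became 1101, 435 and 0.30 with a pseudocount of 5 FPKM, 958, 1276 and 0.01 after rescaling by the median ratio, and 11441, 329 and 1.47 after rescaling by hepatocyte markers; the median was 0.00 with no filter and 0.36 with equal sums leaving out the top 50. No paired analysis was possible because each group holds 1 library. Depth limits Ces3b most among the members with intervals, with 64 reads in the GBP5 library.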

Other observations

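Several genes whose liver level differs between the sexes were measured, and the sex of the mice was not given in the sources used here. Of 9 male-biased genes, 4 were at least 2-fold lower and 1 higher (5 and 1 after rescaling by all genes), with a median log2 ratio of -0.93. Cyp2d9, a steroid hydroxylase, was at 177 FPKM with GBP5 and 573 FPKM with β-Gal. Mup20, a urinary pheromone carrier, was at 2450.0 FPKM with GBP5 and 4678 FPKM with β-Gal. The male-biased genes ranged from Hsd3b5, at 0 FPKM with GBP5 and 21 FPKM with β-Gal, to Cyp4a12a, 4.35-fold higher. Of 8 female-biased genes, 5 were measured, 2 were lower and 1 was higher (3 and 1 rescaled), with a median of -0.95. On the hepatocyte marker scale 2 of the male-biased genes were lower and 2 higher, and 1 of the female-biased genes was lower and 2 higher. Among all features 5.56% were lower and 19.2% higher as deposited, and 9.75% and 7.32% after rescaling by all genes. On the hepatocyte marker scale the shares were 2.16% and 75.2%. Cyp2b9 was at 6.48 FPKM with GBP5 and 26.6 FPKM with β-Gal, and Cyp2a4 at 278 FPKM with GBP5 and 30.5 FPKM with β-Gal. The log2 ratios of the measured female-biased genes ranged from -2.81 for Cux2 to 3.15 for Cyp2a4. Cux2 was at 0.132 FPKM with GBP5 and 6.95 FPKM with β-Gal.

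Markers of resident and recruited cells that do not define the family follow. Their background is all features, of which 19.2% were higher and 5.56% lower as deposited, and 7.32% and 9.75% after rescaling by all genes. Of 7 macrophage and Kupffer cell markers measured, 3 were higher and 1 lower (1 and 1 rescaled), with Mpeg1 at 229 FPKM with GBP5 and 76.7 FPKM with β-Gal and Csf1r at 50.9 FPKM with GBP5 and 30.0 FPKM with β-Gal. Of 7 T and NK cell markers, 6 were higher and none lower (3 and 0 rescaled), with the protease gene Gzmb 4.26-fold and Nkg7 2.24-fold higher. Sinusoidal endothelial markers had 1 of 6 higher and none lower (0 and 1 rescaled), with Stab1 at 45.6 FPKM with GBP5 and 28.2 FPKM with β-Gal and Clec4g at 29.3 FPKM with GBP5 and 45.3 FPKM with β-Gal. Cholangiocyte markers had 1 of 6 higher and 1 lower (0 and 1 rescaled), with Spp1 at 50 FPKM with GBP5 and 60.2 FPKM with β-Gal and Cldn7 3.55-fold higher (interval 2.25 to 5.80). On the hepatocyte marker scale, 6 macrophage and Kupffer cell, 6 T and NK cell, 4 sinusoidal endothelial and 2 cholangiocyte markers were higher, and 1 cholangiocyte marker was lower, against 75.2% and 2.16% of all features.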
